A study of Mus musculus with 8 samples.

Results

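The comparison described here set Lrig1 ablation against Lrig1 control in epithelial cells of mouse skin epidermis, over all expressed genes. It used the 4 libraries whose labels carry the name Lrig1, of 8 in the series, and 18140 genes passed a filter on low values of 32574 in the deposited table. The 2 control libraries come from mice labelled wild type and the 2 ablation libraries from mice labelled as having their basal lineage ablated. Cells were isolated by fluorescence-activated cell sorting, polyA RNA was extracted, and libraries were made with the Ovation Solo kit. The other 4 libraries, 2 of K14 control and 2 of K14 ablation, carry the same genotype labels. The series set out to study how clones spread and how the tissue becomes fluid, using basal cells of control and ablated epidermis. Whether Lrig1 and K14 name a promoter, a sorted population or the lineage that was removed, what agent removed it, how long before sorting, and the age of the mice are not stated in these sources. Nor do the labels say whether the libraries of a group came from separate animals, so every p-value measures only the spread between these libraries, which may be technical.

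The epidermis is renewed by basal keratinocytes, which sit on a basement membrane, divide, and express the keratin pair Krt5 and Krt14. Cells that leave this layer switch to Krt1 and Krt10, build desmosomes and tight junctions, fill with filaggrin and loricrin, secrete barrier lipids and end as cornified cells. Lrig1 encodes a transmembrane regulator of growth factor receptors and is found on stem cells in the upper part of the hair follicle, which can enter the epidermis between follicles after injury. In bulk RNA, fewer cells of a type and less of its RNA per cell cannot be told apart, and this holds for every result given here.

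Values are normalised read counts, that is reads per gene divided by 1 size factor per library. The recovered depth was 7621768 and 6458636 reads in the control libraries and 8874869 and 9108072 in the ablation libraries. Krt5 was at 33207 and 37784 in control and 78928 and 29637 in ablation, and Krt14 at 41781 and 44253 against 69896 and 28052, so the epithelial label holds in all 4 libraries and the groups overlap for both genes. Lrig1 itself was at 4013 and 4194 in control and 1734 and 3575 in ablation (log2 difference of -0.72 ± 0.59, limma adjusted p = 0.548). The ablation libraries stood apart from each other. Of the tested genes, 18.8% were over 2-fold apart between ablation 1 and ablation 2, against 5.88% between the control libraries. On the first principal component, which held 40.7% of the variance, the control libraries lay at 69.7 and 73.1, ablation 2 at 48.7 and ablation 1 at -9.91. Sex-linked transcripts also differed between them. The Y-linked helicase gene Ddx3y was at 851 and 703 in control, 0 in ablation 1 and 1285 in ablation 2, and Xist, the RNA that silences an X chromosome in females, was at 8679 and 12000 in control, 23378 in ablation 1 and 66.1 in ablation 2. Both control libraries thus held Xist and Y-linked reads, and each ablation library mainly one kind. The share of the library taken by mitochondrially encoded genes was 6.29% and 6.89% in control and 3.14% and 4.14% in ablation. The part of these differences in the results was not tested.

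Ablation went mainly with lower values. By limma's moderated test on log2(normalised read count + 1), with Benjamini-Hochberg adjustment across the 18140 genes, 737 genes (4.06%) passed an adjusted p of 0.05, of which 139 (0.766%) were higher and 598 (3.3%) lower in ablation. The median log2 difference was 1.19 among the higher genes, a 2.28-fold rise, and -1.48 among the lower genes, a 2.78-fold fall. Of the lower genes, 358 were over 2-fold below the control mean in each ablation library, and of the higher genes 76 were over 2-fold above it in each. Most of the calls, 680, were protein-coding genes. Without any p-value, the ablation and control values did not overlap in 21.4% of tested genes on the higher side and 26.4% on the lower side. The split depended on scaling: after every library was brought to a common total, the median over all tested genes moved from a log2 difference of -0.02 to 0.23, and 551 genes were higher and 366 lower. Of the 737 calls, 505 passed there too, and no call changed direction under any alternative tried. With the 4 Lrig1 libraries fitted alone 170 genes passed, 5 of them higher and 165 lower. The count of 737 rested on both control libraries and on the spread that the K14 libraries lend to the fit. It was 5 without control 1 and 6 without control 2, while leaving out a K14 control library left 181 and leaving out ablation 1 or ablation 2 gave 2498 and 2097. Krt84, Elovl4, Slc15a2 and Wfdc17 were among the calls in both fits that lacked a control library. In what follows, "higher" and "lower" counts are calls by this test, and ± gives the standard error of a log2 difference computed on log2(value + 1), a scale on which the changes of weakly expressed genes come out too small.

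**Figure D1:**
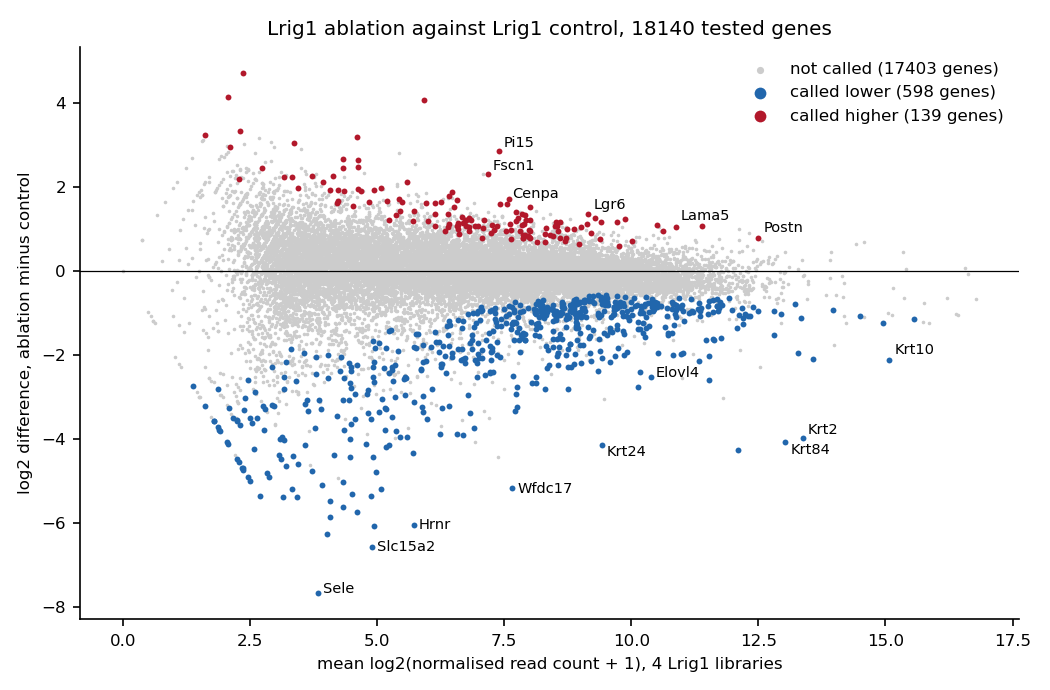
Each point is 1 tested gene, with its mean log2(normalised read count + 1) over the 4 Lrig1 libraries on the horizontal axis and the log2 difference of ablation minus control on the vertical axis; coloured points are the 139 genes called higher and the 598 called lower. Lower calls outnumber higher ones and reach larger differences.

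The sort left reads of other cell types, and some of these moved with the groups. Of 14 tested markers of blood vessel endothelium, 9 were lower in ablation, and all 14 had values below control in both ablation libraries. Their summed normalised read count was 1314 and 1410 in control and 135 and 197 in ablation. Sele, which encodes the leukocyte adhesion molecule E-selectin (chromosome 1, 164048234 to 164057677, plus strand, GRCm38), had 218 and 189 in control and no reads in ablation (0 and 0), a fall of at least 80.5-fold when the floor is set at 3 reads per library (log2 difference of -7.67 ± 0.66, adjusted p = 0.00207). Cdh5, the cadherin of endothelial junctions, had 93.1 and 113 in control and 4.44 and 3.18 in ablation (-4.44 ± 0.42, adjusted p = 0.00253). Vwf, the clotting factor stored in endothelial cells, had 183 and 193 against 0.887 and 10.3 (-5.35 ± 0.81, adjusted p = 0.0143). Pecam1 was listed at 194 and 240 against 36.4 and 107 and did not pass (adjusted p = 0.17). The lymphatic list behaved alike, with 5 of 6 tested markers lower and sums of 1014 and 1114 against 152 and 126, led by the reelin gene Reln at 193 and 186 against 21.3 and 14.3 (-3.37 ± 0.38, adjusted p = 0.00531). Both endothelial sums were thus several times lower in each ablation library than in either control library, and Sele, Cdh5 and Vwf were near or under the floor in at least 1 ablation library.

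Immune cell lists held few calls, although most tested markers of Langerhans and dendritic cells and of myeloid cells were below control. For Langerhans and dendritic cells, the antigen-presenting cells of the epidermis, 1 of 9 tested markers passed, the class II gene H2-Aa with 197 and 296 in control and 30.2 and 19.1 in ablation (log2 difference of -3.28 ± 0.61, adjusted p = 0.0286). All 9 had a difference below 0, with a median of -2.82, and 7 had an unadjusted p under 0.05 by limma. In 8 of them the groups did not overlap on the lower side, against 26.4% of all tested genes. The list summed to 2757 and 3100 against 902 and 1259. Much of this sum was Epcam, which keratinocytes also express, at 1908 and 1930 against 753 and 1134. For macrophages and other myeloid cells 1 of 9 passed, Lyz2 at 64.0 and 94.4 against 9.76 and 22.3, and the list summed to 462 and 658 against 238 and 213. Of these 9 markers 8 had a difference below 0, with a list median of -1.51. In 7 the groups did not overlap on the lower side, and 7 had an unadjusted p under 0.05 by limma. Fibroblast markers did not share a direction: Vim, the intermediate filament of mesenchymal cells, fell from 611 and 816 to 95.8 and 125 (-2.68 ± 0.25, adjusted p = 0.00254), whereas the matrix gene Fbln1 rose from 276 and 240 to 595 and 556 (1.16 ± 0.16, adjusted p = 0.0118), and the list summed to 1314 and 1596 against 1153 and 1095. Of 4 tested mural cell markers 1 was lower, Notch3, which keratinocytes also express, and of 2 tested adipocyte markers 1 was lower, Fabp4 at 33.8 and 36.7 against 0.887 and 1.59. No marker of skeletal muscle (3 tested), Schwann cells (5), T cells (4), neutrophils and mast cells (3), melanocytes (6), Merkel cells (3) or erythroid cells (1) passed with limma or edgeR. At an unadjusted p under 0.05 the same lists had 1, 2, 1, 0, 0, 1 and 0 genes, and DESeq2 called 1 Schwann and 1 Merkel cell marker. Over all lists of other cell types 19 markers were lower. Leaving out either Lrig1 control library left 0 of these, a K14 control library left 10 or 11, and ablation 1 or ablation 2 gave 28 and 21. The 14 endothelial calls were 0 without either Lrig1 control library, 8 and 9 without K14 control 1 and 2, and 7 with a filter at 1e-05 of the library total. The part of these cells in the results on keratinocyte genes was not tested.

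**Figure D2:**
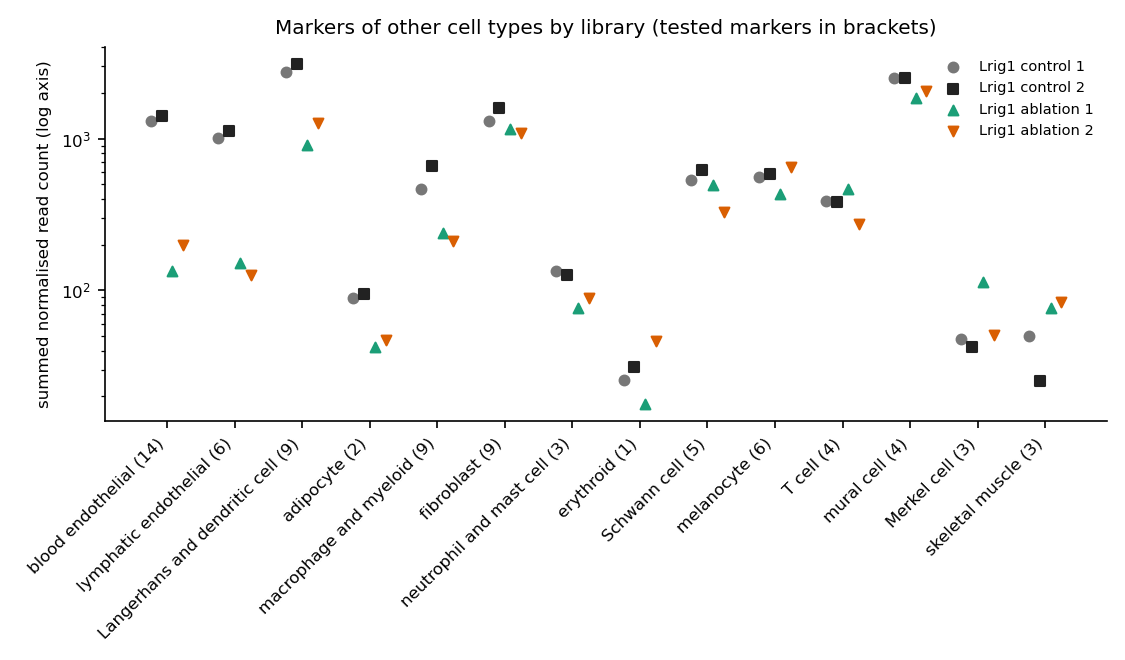
Summed normalised read counts (log axis) of the marker lists of other cell types in each of the 4 Lrig1 libraries, with the number of tested markers in brackets; sums cover every listed marker present in the table. Both endothelial lists are below control in both ablation libraries, while the fibroblast sums lie closer together, with both ablation sums below both control sums.

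The widest decrease covered the programme of keratinocytes that leave the basal layer. In 10 lists of differentiation and cornification genes, 65 of 147 tested genes were lower and 0 were higher by limma, 44.2% against 4.06% over all genes, with a median log2 difference of -1.37. Among suprabasal keratins 4 of 9 were lower, with a list median of -1.49. Krt10, the main type I keratin of spinous cells (chromosome 11, 99385254 to 99389364, minus strand), was at 66749 and 78428 in control and 16215 and 16815 in ablation (log2 difference of -2.13 ± 0.25, adjusted p = 0.00602). The antisense gene Gm11940 lies within it and fell from 23563 and 27271 to 5771 and 6101; because the strand setting of the counting is not known here, reads of this pair cannot be told apart. Krt2, a keratin of the upper spinous and granular layers (chromosome 15, 101810689 to 101818169, minus strand), was at 39589 and 45047 against 4615 and 1544 (-3.98 ± 0.43, adjusted p = 0.00457). Krt78 was at 271 and 306 against 16.9 and 20.7 (-3.88 ± 0.31, adjusted p = 0.00197). Krt1, the partner of Krt10, was at 26052 and 28142 against 13588 and 11995 and missed the threshold (-1.08 ± 0.28, adjusted p = 0.0763). For all 4 keratins the control libraries lay above both ablation libraries.

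Most of the tested genes of the cornified envelope were lower. All 20 tested envelope proteins and cross-linkers had values below 0 on the log2 scale of the difference, and 12 passed, with a list median of -1.77. Lor, which encodes loricrin, the main envelope protein (chromosome 3, 92080271 to 92083142, minus strand), was at 139 and 121 in control and 10.7 and 23.1 in ablation (log2 difference of -2.96 ± 0.42, adjusted p = 0.0126). Casp14, the caspase of terminal differentiation, was at 664 and 605 against 172 and 168 (-1.89 ± 0.19, adjusted p = 0.00342), and the envelope scaffold gene Evpl at 4953 and 5111 against 1469 and 1767 (-1.64 ± 0.19, adjusted p = 0.00552). Tgm1, the transglutaminase that cross-links the envelope, was at 582 and 591 against 39.0 and 149 (-2.92 ± 0.56, adjusted p = 0.0318). Its 2 ablation values differed widely, although both were below control. Calm4, which encodes a calcium-binding protein, was at 5816 and 6145 in control and 1705 and 1248 in ablation. Dmkn and Sbsn, which encode secreted glycine-rich products, were at 5755 and 6366, and 3787 and 4246 in control. In ablation Dmkn was at 2142 and 1852 and Sbsn at 832 and 1263. Among small proline-rich genes, whose products are envelope cross-bridges, 8 of 14 tested were lower and all 14 had values below control in both ablation libraries. Sprr1a was at 3105 and 2702 against 209 and 870 (-2.76 ± 0.53, adjusted p = 0.0321). Counts of the Sprr2 copies, such as Sprr2b at 183 and 149 against 4.44 and 5.57, are uncertain because the copies are near-identical. Of 6 fused S100 genes 2 were lower: Hrnr, which encodes hornerin (chromosome 3, 93319749 to 93333570, plus strand), at 395 and 462 against 2.66 and 10.3 (-6.05 ± 0.53, adjusted p = 0.00207), and Flg2 at 37.3 and 40.9 against 0 and 0.796 (-4.90 ± 0.69, adjusted p = 0.0125). A single late cornified envelope gene, Lce6a, was tested and did not pass with limma, edgeR or DESeq2 (unadjusted p under 0.05 in 1 of 1).

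Promoter sequence was examined for these genes because their values fell together. In the RefSeq promoter table for GRCm38.p6, which runs from 250 bases before to 50 after a start site, 10940 of the tested genes and 113 of the 147 tested cornification genes had an entry. Only the 250 bases before the start site were searched for motifs. The AP-1 motif TGANTCA, read on both strands and identical on both, was present in 4.91% of all these promoters, in 25.7% of those of the cornification genes and in 11.2% and 8.08% of those of the genes called lower and higher over the whole table. The letters TATAAA were present in 7.09%, 25.7%, 16.8% and 5.05% of the same sets. In the 54 matched promoters of cornification genes called lower, AP-1 was present in 27.8% and TATAAA in 33.3%. The Grainyhead motif AACCNGTT was in 1.65% of all these promoters and in 1.77% of those of the cornification genes. For the same 2 sets the KLF motif GGGTGTGGC was in 1.44% and 0.885%, CCAAT in 36% and 27.4%, and TTTGAA in 11% and 18.6%. Such matches are a description of the sequence, and binding was not measured. The 250 bases before the start site, in which no annotated exon lies, are shown 5′ to 3′ for 5 genes that fell, with the AP-1 matches in capitals. They are Lor (chr3:92083143-92083392, minus strand), Flg2 (chr3:93197023-93197272, plus strand), Sbsn (chr7:30751221-30751470, plus strand), the epidermal serpin Serpinb12 (chr1:106934199-106934448, plus strand) and the tight junction gene Cldn4 (chr5:134946935-134947184, minus strand).
Lor: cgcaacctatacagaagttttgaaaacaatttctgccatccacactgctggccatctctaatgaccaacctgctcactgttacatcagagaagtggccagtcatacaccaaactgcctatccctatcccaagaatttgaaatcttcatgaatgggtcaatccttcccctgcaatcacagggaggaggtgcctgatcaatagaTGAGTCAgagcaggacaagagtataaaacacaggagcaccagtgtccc
Flg2: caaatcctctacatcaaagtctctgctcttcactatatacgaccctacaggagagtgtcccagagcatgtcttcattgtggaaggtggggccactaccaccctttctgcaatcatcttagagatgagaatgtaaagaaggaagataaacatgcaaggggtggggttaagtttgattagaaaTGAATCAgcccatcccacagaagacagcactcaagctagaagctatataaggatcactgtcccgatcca
Sbsn: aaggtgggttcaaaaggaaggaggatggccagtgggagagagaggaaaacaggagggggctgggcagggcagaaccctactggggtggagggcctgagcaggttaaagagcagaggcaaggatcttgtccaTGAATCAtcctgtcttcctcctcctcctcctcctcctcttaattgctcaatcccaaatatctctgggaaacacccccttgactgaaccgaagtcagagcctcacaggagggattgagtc
Serpinb12: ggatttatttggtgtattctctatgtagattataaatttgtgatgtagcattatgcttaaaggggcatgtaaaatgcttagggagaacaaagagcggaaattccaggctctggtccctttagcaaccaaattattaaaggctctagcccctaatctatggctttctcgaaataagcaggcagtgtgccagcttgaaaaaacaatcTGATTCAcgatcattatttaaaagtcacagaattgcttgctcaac
Cldn4: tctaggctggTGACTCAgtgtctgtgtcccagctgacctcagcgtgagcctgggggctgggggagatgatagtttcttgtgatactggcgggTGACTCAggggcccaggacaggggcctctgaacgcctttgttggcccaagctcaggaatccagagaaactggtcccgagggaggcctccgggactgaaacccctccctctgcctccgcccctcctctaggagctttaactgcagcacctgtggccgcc
The match began 48 bases before the start site in Lor, 69 in Flg2, 119 in Sbsn and 45 in Serpinb12, and Cldn4 had matches at 240 and 158 bases.

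Calls among proteases, serpins and barrier lipid enzymes were all decreases. Of 13 tested kallikreins and their inhibitors, which control the shedding of cornified cells, 3 were lower: Klk8 at 288 and 297 in control and 71.0 and 115 in ablation, Klk11 at 293 and 254 against 82.5 and 145, and the inhibitor gene Spink5 at 5315 and 5565 against 684 and 2225 (log2 difference of -2.14 ± 0.45, adjusted p = 0.0421). Of 16 tested clade B serpins 7 were lower, among them Serpinb12 at 664 and 661 against 61.2 and 78.8 (-3.23 ± 0.26, adjusted p = 0.00197) and Serpinb13 at 239 and 282 against 39.0 and 18.3 (-3.23 ± 0.33, adjusted p = 0.00362). The Serpinb3 copies in this count share sequence and are uncertain. Of 33 tested enzymes and transporters of barrier lipids 17 were lower, with a list median of -1.31. Elovl4, the elongase that makes the ultra-long fatty acids of barrier ceramides (chromosome 9, 83778692 to 83806277, minus strand), was at 3162 and 3272 against 478 and 646 (-2.53 ± 0.17, adjusted p = 0.00103). Acer1, an epidermal ceramidase, was at 742 and 702 against 125 and 168 (-2.31 ± 0.20, adjusted p = 0.00207). The dehydrogenase gene Sdr9c7 was at 204 and 226 against 18.6 and 16.7 (-3.53 ± 0.27, adjusted p = 0.00177), and the lipoxygenase gene Alox12b, which oxidises the linoleate of these ceramides, at 133 and 130 against 4.44 and 15.9 (-3.78 ± 0.54, adjusted p = 0.0126). For these 4 genes every ablation value was below both control values. The lipid transporter gene Abca12 was at 2875 and 2756 against 755 and 1356 (-1.48 ± 0.28, adjusted p = 0.0313).

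Of 23 tested transcription factors of differentiation 10 were lower, with a list median of -0.79. Ovol1, a zinc finger repressor that takes cells out of the cycle, was at 1772 and 1520 in control and 323 and 509 in ablation (log2 difference of -2.01 ± 0.23, adjusted p = 0.0057). Grhl3, an activator of barrier genes, was at 841 and 806 against 170 and 299 (-1.87 ± 0.26, adjusted p = 0.0115), and Cebpa at 1225 and 1366 against 479 and 469 (-1.45 ± 0.21, adjusted p = 0.0134). Klf4, needed for the barrier, was at 8209 and 7846 against 4475 and 3843 (-0.95 ± 0.20, adjusted p = 0.0381). Among 12 other S100 genes 2 were lower, S100a3 and S100a16, and the list median was -0.19, or 0.05 at a common library total. The 65 cornification calls were 1 and 1 without Lrig1 control 1 and 2, 29 and 29 without K14 control 1 and 2, and 80 and 78 without ablation 1 and 2. They numbered 45 at a common library total and 33 when the 4 Lrig1 libraries were fitted alone.

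**Figure D3:**
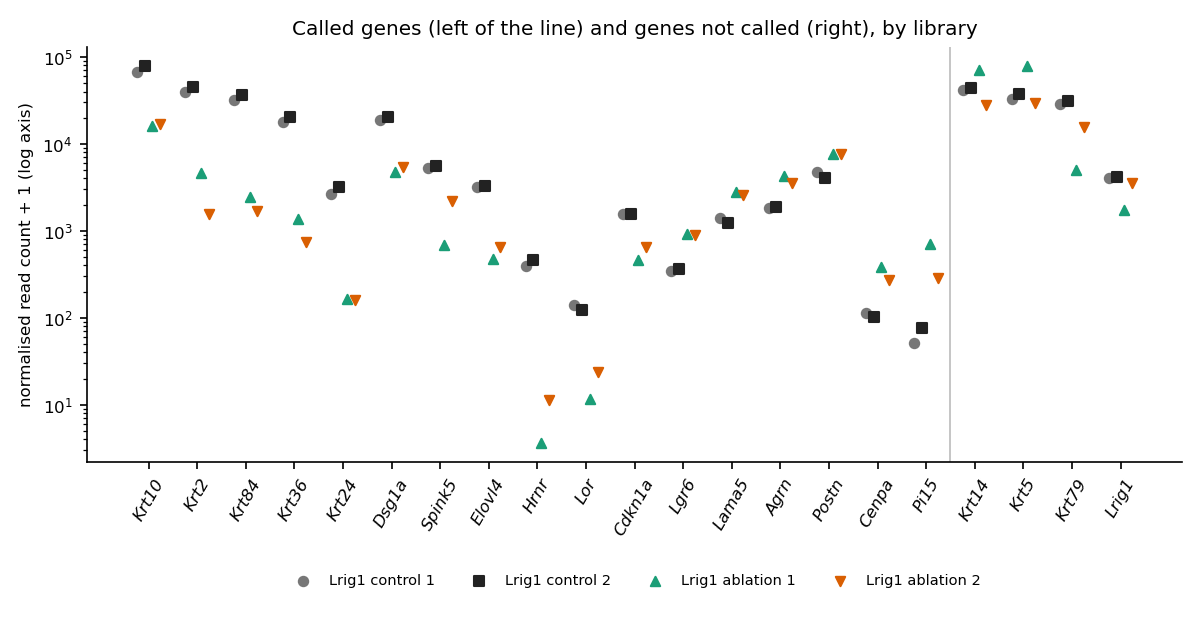
Normalised read counts on a log axis of single genes in the 2 control and 2 ablation libraries, each point 1 library; 17 genes called by the test are left of the line and Krt14, Krt5, Krt79 and Lrig1, which were not called, right of it. For the called genes both ablation libraries lie on one side of both control libraries.

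Limma's calls in the junction lists were also all decreases, while edgeR called 1 desmosome gene higher. Mpdz, a tight junction scaffold outside these lists, rose and is given below. Of 16 tested desmosome genes 7 were lower, with a list median of -1.10. Dsc1, the desmocollin of the upper layers, was at 7191 and 7432 in control and 842 and 1729 in ablation (log2 difference of -2.60 ± 0.34, adjusted p = 0.00852). Dsg1a, a desmoglein of the suprabasal layers, was at 18890 and 20409 against 4690 and 5481 (-1.95 ± 0.21, adjusted p = 0.00413), although reads of the Dsg1 copies may be shared between them. Jup, which encodes the linker plakoglobin, was at 15609 and 14763 against 7578 and 6487 (-1.11 ± 0.17, adjusted p = 0.0156), while Dsp, the anchor to keratin filaments, was at 119692 and 132009 against 63990 and 58181 and missed the threshold (-1.04 ± 0.30, adjusted p = 0.0971). Of 16 tested tight junction genes 4 were lower. Cldn4, a claudin of the granular layer whose promoter is shown above, was at 879 and 791 against 86.1 and 160 (-2.82 ± 0.27, adjusted p = 0.00253), and Ocln, which encodes occludin, at 664 and 588 against 218 and 365 (-1.14 ± 0.24, adjusted p = 0.0398). Of 10 tested connexins 1 was lower, Gjb5, at 317 and 323 against 164 and 114. Adherens junction genes had 2 lower of 16, both nectins: Nectin4 at 1149 and 1145 against 233 and 375 (-1.95 ± 0.22, adjusted p = 0.00531) and Nectin1 at 4693 and 4550 against 2523 and 2272. E-cadherin's gene Cdh1 was at 7193 and 7935 against 5615 and 5193 and did not pass (adjusted p = 0.12). The 14 junction calls were 0 without either Lrig1 control library, 4 without either K14 control library, and 21 and 24 without ablation 1 and 2.

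Hard keratins had the lowest median of any list. Of 12 tested hair keratins 7 were lower, against 3.3% of all tested genes, and all 12 had a difference below 0, with a list median of -4.51. In 11 the groups did not overlap on the lower side, against 26.4% of all tested genes. The summed normalised read count of the hair keratin list was 50794 and 59727 in control and 3926 and 2512 in ablation. Most of this sum was Krt84 and Krt36 in every library. Krt84, a type II hard keratin (chromosome 15, 101525026 to 101532820, minus strand), was at 31890 and 36926 against 2465 and 1693 (log2 difference of -4.07 ± 0.23, adjusted p = 0.001), a 16.8-fold fall. Krt36, a type I hard keratin (chromosome 11, 100102007 to 100105626, minus strand), was at 18064 and 20536 against 1354 and 748 (-4.26 ± 0.36, adjusted p = 0.00207). The shaft keratins Krt31, Krt81 and Krt87 lay lower and differed between the control libraries themselves: Krt31 was at 86.1 and 355, Krt81 at 82.7 and 244, and Krt87 at 126 and 492, with 6.21 or less in every ablation library. Reads of these close copies may be misassigned among Krt81, Krt86 and Krt87 and between Krt31 and Krt33a. Of 14 tested keratin-associated proteins, the matrix proteins of the hair shaft, 10 were lower. Krtap7-1 was at 99.0 and 197 against 3.55 and 0.796 (-5.62 ± 0.77, adjusted p = 0.0113). Krtap6-1 was at 23.3 and 36.7 against 0 and 0, at least 11.9-fold lower by the same floor, and Krtap15 at 17.5 and 91.6 against 0 and 0, at least 21.6-fold lower. Inner root sheath and hair matrix genes had 3 lower of 15, including the regulators Hoxc13, at 534 and 485 against 300.0 and 232, and Foxn1, at 263 and 231 against 113 and 54.9 (-1.63 ± 0.31, adjusted p = 0.0303).

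Genes of the upper follicle, bulge and sebaceous gland did not move as one. Of 11 tested upper follicle genes 2 were lower and 1 was higher. Most had a difference below 0 (9 of 11), with a list median of -1.36, being -1.90 in ablation 1 and -0.76 in ablation 2. The groups did not overlap in 9 on the lower side and 2 on the higher, against 26.4% and 21.4% of all tested genes. By limma 7 had an unadjusted p under 0.05. Lgr6, a receptor for R-spondins that marks stem cells of the isthmus, rose from 346 and 364 to 926 and 904 (log2 difference of 1.36 ± 0.27, adjusted p = 0.0332). Krt79, a keratin of the infundibulum, was at 28938 and 31438 in control and 4961 and 15797 in ablation, and Cst6 at 12740 and 13373 against 1323 and 5343; both were lower in each ablation library, but these lay far apart and neither passed (adjusted p = 0.298 and 0.172). Krt17 fell from 12654 and 12357 to 7190 and 7359 (-0.78 ± 0.17, adjusted p = 0.0465). In the bulge and hair germ list 1 of 15 was lower, the type I keratin Krt24 at 2638 and 3158 against 164 and 158 (-4.15 ± 0.39, adjusted p = 0.00253). That list had 9 differences above 0 and 6 below, with a median of 0.48. Lgr5, the related stem cell receptor of the lower bulge and germ, was at 67.5 and 52.2 against 181 and 493 and just missed the threshold (2.31 ± 0.52, adjusted p = 0.0513). Sebaceous gland genes had 1 lower of 16, Dgat2, which makes triglycerides, at 801 and 702 against 221 and 151 (-2.03 ± 0.40, adjusted p = 0.0343). The 24 lower calls among appendage genes, hair keratins included, were 1 and 1 without Lrig1 control 1 and 2, 10 and 10 without K14 control 1 and 2, and 26 and 26 without ablation 1 and 2.

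Basal keratinocyte genes gave no calls by limma or edgeR, and 4 with DESeq2. Of 14 tested, 13 had values above 0 and 4 had an unadjusted p under 0.05, with a list median of 0.46, which was 0.98 in ablation 1 and 0.06 in ablation 2. Col17a1, the hemidesmosomal collagen, was at 12639 and 13978 in control and 28120 and 11917 in ablation, so the groups overlapped (adjusted p = 0.531). Itgb4, the hemidesmosomal integrin, was at 3551 and 3320 against 8202 and 4053 (adjusted p = 0.204). These genes were high in ablation 1 and near control in ablation 2. Of 22 tested integrins 1 passed, Itgb5, a partner in vitronectin binding, which fell from 1132 and 1164 to 635 and 482 (log2 difference of -1.05 ± 0.16, adjusted p = 0.0142). Most of the list went the other way, with 16 differences above 0, 6 below and a median of 0.52. The groups did not overlap in 11 on the higher side and 4 on the lower, against 21.4% and 26.4% of all tested genes. By limma 9 integrins had an unadjusted p under 0.05.

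Of the 139 genes called higher, 8 were in the basal and matrix lists. Among 27 tested matrix glycoproteins and proteoglycans 6 were higher and 1 was lower, against 0.766% and 3.3% of all tested genes. The 6 agreed between the ablation libraries. Agrn, which encodes the basement membrane proteoglycan agrin, rose from 1836 and 1882 to 4267 and 3555 (log2 difference of 1.07 ± 0.17, adjusted p = 0.0175). Hspg2, which encodes perlecan, rose from 1078 and 1166 to 2121 and 2251 (0.96 ± 0.15, adjusted p = 0.0144), and Megf6 from 627 and 591 to 1510 and 1353 (1.23 ± 0.16, adjusted p = 0.00938). Postn, which encodes the wound matrix protein periostin, rose from 4768 and 4078 to 7563 and 7655 (0.79 ± 0.15, adjusted p = 0.029). Fbn1, the fibrillin of elastic fibres, fell from 60.5 and 93.0 to 5.33 and 16.7. Of 10 tested laminin chains 1 was higher, Lama5, the chain of the mature epidermal basement membrane, at 1388 and 1221 against 2796 and 2613 (1.05 ± 0.15, adjusted p = 0.0126). Of 30 tested collagens 1 was higher, Col16a1, at 353 and 412 against 1019 and 674 (1.12 ± 0.20, adjusted p = 0.0247). Col7a1, which forms the anchoring fibrils, was at 1376 and 1238 against 2817 and 1830 (adjusted p = 0.0755). Matrix proteases and inhibitors had 1 lower of 26, Mmp10 at 10.5 and 7.05 against 0.887 and 0. The 8 higher calls of the basal and matrix lists were 0 without either Lrig1 control library, 2 without either K14 control library, 14 and 34 without ablation 1 and 2, and 14 at a common library total; the 6 matrix glycoproteins were 0, 2, and 7 and 12. Fibroblast markers, given above, did not share a direction, and their sums were 1314 and 1596 in control and 1153 and 1095 in ablation. The part of fibroblasts in these values was not tested.

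**Figure D4:**
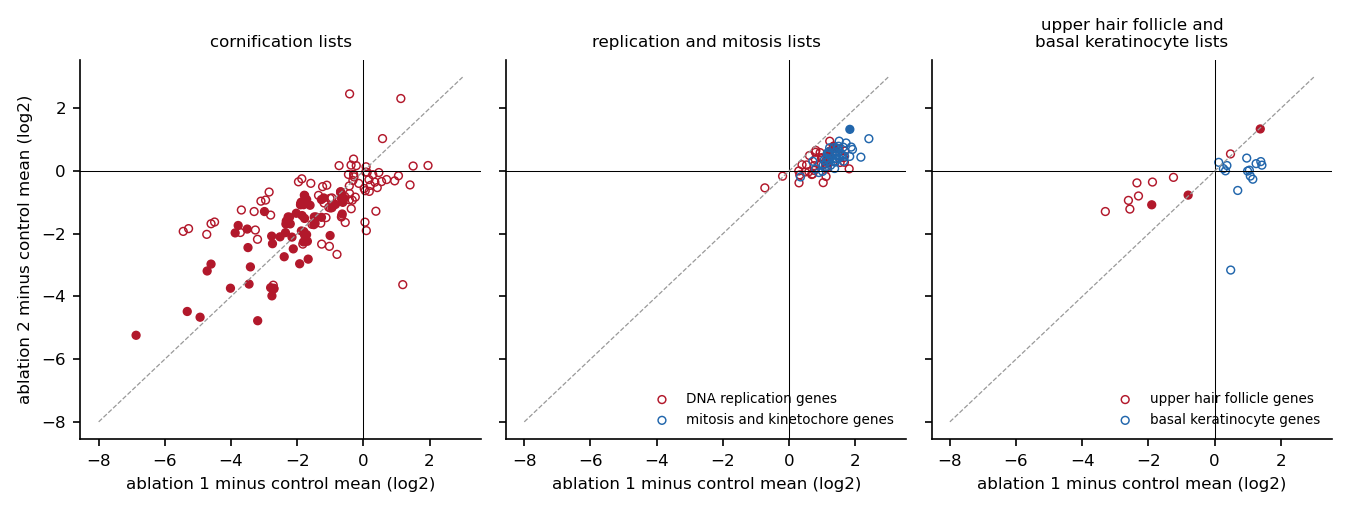
Log2 difference from the control mean in ablation 1 against that in ablation 2, by gene list, with 1 point per tested gene and filled points for called genes; the dashed line marks equal values. Replication and mitosis genes lie on the side of ablation 1, with list medians of 1.03 against 0.28 and 1.41 against 0.47.

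Most mitosis and replication genes had values above control, with few calls. Of 41 tested mitosis and kinetochore genes all 41 had a difference above 0 and in 35 the groups did not overlap, against 21.4% of all genes on that side, yet 1 passed. The list median was 0.96, being 1.41 in ablation 1 and 0.47 in ablation 2. Cenpa, the histone of the centromere (chromosome 5, 30666777 to 30674830, plus strand), rose from 113 and 101 to 386 and 271 (log2 difference of 1.59 ± 0.25, adjusted p = 0.0156). Bub1b, a kinase of the spindle checkpoint, was at 114 and 107 against 368 and 207 and missed the threshold (1.31 ± 0.32, adjusted p = 0.0621), as did the proliferation marker Mki67 at 2967 and 3299 against 8288 and 4730 (1.00 ± 0.36, adjusted p = 0.167). Of 43 tested replication genes 2 were higher, 40 had a difference above 0 and in 31 the groups did not overlap on that side, with a list median of 0.70: the primase partner gene Pola2 at 62.9 and 66.3 against 166 and 113 (1.07 ± 0.23, adjusted p = 0.0444) and the polymerase gene Pole at 278 and 265 against 643 and 424 (0.94 ± 0.21, adjusted p = 0.0496). Kinesins, chosen by symbol, had 2 higher and 2 lower of 35, and 14 had a difference below 0. The mitotic motor Kif18b rose from 51.2 and 53.6 to 196 and 119 (1.53 ± 0.27, adjusted p = 0.0247) and Kif21b from 108 and 86.0 to 238 and 364, while the transport motors Kif1b and Kif1c fell. Of 20 tested nucleoporins 1 was higher, Nup210, at 57.0 and 35.2 against 204 and 140 (1.89 ± 0.30, adjusted p = 0.0169). Both ablation libraries stood above control for each higher gene, and ablation 1 was the higher of the pair for all of them but Kif21b. Fitting the 4 Lrig1 libraries alone left 0 higher calls in these lists. The 6 higher calls were 0 without either Lrig1 control library, 1 without either K14 control library, 14 without either K14 ablation library, 7 without ablation 1, 71 without ablation 2, 36 at a common library total and 39 with DESeq2.

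Cell cycle inhibitors did not share a direction. Of 6 tested cyclin-dependent kinase inhibitors 2 were lower and 3 had a difference above 0, with a list median of -0.04, or 0.21 at a common library total. Cdkn1a, which encodes p21, fell from 1553 and 1582 to 462 and 659 (log2 difference of -1.50 ± 0.19, adjusted p = 0.00848), and Cdkn2b, which encodes p15, from 121 and 138 to 23.1 and 26.3 (-2.35 ± 0.25, adjusted p = 0.00425). Mitotic promoters often carry the CCAAT box, read by NF-Y. Motifs were again searched in the 250 bases before the start site in the RefSeq table. The box was present on either strand in 72.7% of the 33 matched promoters of the mitosis list against 36% of all matched promoters. The cell cycle element TTTGAA was in 33.3% against 11%, with no AP-1 match in the list. The 250 bases before the start site of Kif18b (chr11:102925125-102925374, minus strand), which rose, and of Bub1b (chr2:118597961-118598210, plus strand), a list member that did not pass, are shown 5′ to 3′ with the box in capitals.
Kif18b: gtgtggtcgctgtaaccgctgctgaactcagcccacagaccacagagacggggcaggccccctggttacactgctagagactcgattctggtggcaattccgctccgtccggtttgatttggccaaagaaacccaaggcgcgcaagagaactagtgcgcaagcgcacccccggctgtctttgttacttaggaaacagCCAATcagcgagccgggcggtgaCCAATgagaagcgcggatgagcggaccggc
Bub1b: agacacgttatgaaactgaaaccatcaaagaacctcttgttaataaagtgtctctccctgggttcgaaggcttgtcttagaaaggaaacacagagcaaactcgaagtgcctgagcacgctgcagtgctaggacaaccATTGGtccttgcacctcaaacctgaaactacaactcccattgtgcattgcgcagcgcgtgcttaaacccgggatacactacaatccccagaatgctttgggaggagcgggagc
The boxes in Kif18b begin 53 and 30 bases before the start site, and the one in Bub1b, which reads on the opposite strand, 113 bases before it.

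Genes of wound activation and cell shape did not share a direction. Among 4 wound keratins 1 was lower, Krt17, given above, while Krt6a was at 4541 and 5173 in control and 7754 and 3487 in ablation. Reads of Krt6a and its near-identical copy Krt6b may be shared. Of 49 tested actomyosin genes 1 was higher and 3 were lower, with a list median of -0.12, or 0.13 at a common library total. Fscn1, the actin bundler of protrusions, rose from 53.5 and 76.1 to 574 and 179 (log2 difference of 2.31 ± 0.48, adjusted p = 0.0408). Cobl, an actin nucleator, fell from 381 and 395 to 131 and 135 (-1.53 ± 0.15, adjusted p = 0.0033), and Ezr, a membrane linker, and Myh14, a non-muscle myosin, also fell. Of 41 tested guidance genes (semaphorins, plexins, ephrins and Eph receptors) 4 were lower and 1 was higher. Efna3 was at 938 and 857 against 294 and 423 (-1.34 ± 0.22, adjusted p = 0.0185), Ephb6 at 1795 and 1848 against 871 and 997, Epha2 at 1341 and 1305 against 797 and 904 and Sema3a at 17.5 and 33.8 against 0 and 2.39, while Sema5a rose from 426 and 475 to 1242 and 812 (1.16 ± 0.20, adjusted p = 0.0227).

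In the EGF receptor list, which covers ligands, receptors and feedback genes, 2 of 25 were lower and 1 was higher, with a median of -0.17, or 0.08 at a common library total. The ligand gene Tgfa fell from 296 and 333 to 144 and 174 (log2 difference of -0.98 ± 0.21, adjusted p = 0.0462) and the feedback inhibitor Errfi1 from 1801 and 1593 to 808 and 876 (-1.01 ± 0.16, adjusted p = 0.0155). Etv5, a transcription factor downstream of the receptor's kinase cascade, rose from 64.0 and 74.7 to 205 and 129 (1.22 ± 0.25, adjusted p = 0.0368). Egfr itself was at 2439 and 2604 against 3354 and 2812 (adjusted p = 0.351). Of 23 YAP and TAZ genes 1 was lower, the tissue factor gene F3 at 1116 and 905 against 200 and 234 (-2.21 ± 0.33, adjusted p = 0.0134), and the list median was -0.12, or 0.13 at a common library total. In the mesenchymal transition list 1 of 6 was lower, Vim, given above, and Snai2 was at 639 and 575 against 889 and 927 (adjusted p = 0.107). The 12 lower calls among activation genes were 0 without either Lrig1 control library, 3 without either K14 control library, 32 and 25 without ablation 1 and 2, 8 with TMM factors and 6 at a common library total.

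Of 113 tested stress genes 9 were lower, against 3.3% of all tested genes. Of 41 tested heat shock genes 4 were lower, with a list median of -0.16, or 0.09 at a common library total. Hspb1, the small heat shock protein of keratinocytes, fell from 2716 and 2470 to 892 and 1168 (log2 difference of -1.34 ± 0.17, adjusted p = 0.00886), and Hspa2 from 868 and 818 to 178 and 248 (-2.0 ± 0.30, adjusted p = 0.0142). Of 22 tested genes of the unfolded protein response and integrated stress 3 were lower, among them Herpud1, at 803 and 727 against 245 and 363 (-1.36 ± 0.20, adjusted p = 0.0134), and Sesn2, at 268 and 247 against 136 and 150. In this list 19 had a difference below 0, with a median of -0.41, or -0.16 at a common library total. In 14 the groups did not overlap on the lower side, against 26.4% of all tested genes. Antioxidant genes had 1 higher, Txnrd1 at 142 and 121 against 292 and 279 (1.12 ± 0.19, adjusted p = 0.0216), and 1 lower, the cystine carrier Slc7a11 at 187 and 165 against 80.8 and 95.5, of 16. Of 19 tested p53 targets 3 were lower, Cdkn1a, Sesn2 and Perp, a desmosomal gene at 32733 and 34789 against 18137 and 14004, with a list median of -0.24, or 0.01 at a common library total. Of 19 immediate early and AP-1 genes, which tissue dissociation also induces, none passed with limma or edgeR, 10 had an unadjusted p under 0.05 and DESeq2 called 3. In 14 of them the groups did not overlap on the lower side, against 26.4% of all tested genes, with a list median of -0.53. Fos was at 9469 and 9346 against 7091 and 6108 and Fosl1 at 629 and 636 against 242 and 373 (adjusted p = 0.155 and 0.0598). The 9 calls were 0 without either Lrig1 control library, 3 without either K14 control library, 15 without either K14 ablation library, 28 and 22 without ablation 1 and 2 and 4 at a common library total.

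Immune genes gave 2 calls, both cytokines of the interleukin-1 family, of 14 tested in that list. Il1f8, whose product is also called IL-36 beta, was at 37.3 and 29.6 in control and 0.887 and 1.59 in ablation (log2 difference of -3.95 ± 0.54, adjusted p = 0.0106), and Il1b at 44.2 and 42.3 against 5.33 and 10.3 (-2.38 ± 0.46, adjusted p = 0.0321). Myeloid markers, given above, moved in the same direction. None of 33 interferon response genes passed with limma, edgeR or DESeq2, and 1 had an unadjusted p under 0.05. Of these, 25 did not overlap on the lower side, against 26.4% of all genes, and their median was -1.31. Limma and edgeR called none of 12 class I presentation genes, 21 chemokines, 14 NF-kB genes or 5 gasdermins; 0, 4, 2 and 2 of these had an unadjusted p under 0.05, and DESeq2 called 1 gasdermin. The medians of the class I and NF-kB lists were -0.13 and -0.20, or 0.12 and 0.04 at a common library total. Gsdma, a pore-forming protein of differentiated keratinocytes, was at 458 and 416 against 13.3 and 130. The 2 lower calls were 0 without either Lrig1 control library, 1 without either K14 control library, 21 and 20 without K14 ablation 1 and 2, and 7 and 5 without Lrig1 ablation 1 and 2. Of the interferon response genes, 11 were lower without either K14 ablation library and 3 when the Lrig1 libraries were fitted alone.

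Of 27 tested cholesterol synthesis genes 6 were lower, against 3.3% of all tested genes, and in 23 the groups did not overlap on the lower side, against 26.4%, with a list median of -0.66. Dhcr7, the last enzyme of the pathway, fell from 532 and 537 to 251 and 215 (log2 difference of -1.20 ± 0.15, adjusted p = 0.00796), and Fdft1, which makes squalene, from 923 and 911 to 459 and 462 (-0.99 ± 0.14, adjusted p = 0.0127). Fdps, the enzyme before it, fell from 559.9 and 539.9 to 290 and 266 (-0.98 ± 0.16, adjusted p = 0.0158), and the sterol carrier Stard4 from 839 and 884 to 185 and 416. Hmgcs1, at the head of the pathway, was at 3900 and 4197 against 3229 and 2751 and did not pass (adjusted p = 0.168). Fatty acid genes had 3 lower of 25, including the acyl-CoA synthetase gene Acsl1 at 1813 and 1876 against 730 and 830 (-1.24 ± 0.19, adjusted p = 0.0156), and the list median was -0.08, or 0.16 at a common library total. Of 14 tested lipoxygenase and prostaglandin genes 4 were lower. Alox12 was at 156 and 152 against 16.9 and 16.7 (-3.12 ± 0.29, adjusted p = 0.00253), and the prostaglandin receptor gene Ptger3 at 68.7 and 88.8 against 10.7 and 2.39 (-3.65 ± 0.66, adjusted p = 0.025).

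Energy genes held few calls. Of 13 tested mitochondrially encoded genes 2 were lower and all 13 had values below 0, with a list median of -1.24. The complex I subunit mt-Nd1 was at 67523 and 76073 in control and 30592 and 34941 in ablation (log2 difference of -1.13 ± 0.24, adjusted p = 0.0408), and the oxidase subunit mt-Co1 at 114302 and 131299 against 57428 and 63716 (adjusted p = 0.0911). None of 81 nuclear oxidative phosphorylation genes passed with limma, edgeR or DESeq2, 3 had an unadjusted p under 0.05, and the list median was -0.17, or 0.08 at a common library total; it was 0.23 in ablation 1 and -0.52 in ablation 2. Ribosomal protein genes had 1 lower of 85, Rpl26 at 1801 and 2005 against 631 and 387 (-1.94 ± 0.25, adjusted p = 0.00837), with list medians of 0.05 in ablation 1 and -0.82 in ablation 2. The proteasome list had 2 of 37 genes at an unadjusted p under 0.05 and none called with limma, edgeR or DESeq2. Among 25 genes of glycolysis and hypoxia 1 was lower, Ndrg1 at 1381 and 1239 against 476 and 605 (-1.28 ± 0.18, adjusted p = 0.0126), and their median was 0.49 in ablation 1 and -0.57 in ablation 2. The medians of the 2 ablation libraries lay on opposite sides of control in the nuclear oxidative phosphorylation, ribosomal protein and glycolysis lists, and both below control in the mitochondrially encoded list.

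Of 234 tested solute carriers, chosen by symbol, 4 were higher and 15 lower, with a list median of -0.04, or 0.21 at a common library total. Slc15a2, a proton-coupled peptide transporter, was at 339.9 and 245 in control and 0.887 and 3.98 in ablation (log2 difference of -6.56 ± 0.42, adjusted p = 0.00103), the second largest decrease in the naming rule after Sele. Both copper transporter genes, Slc31a1 at 702 and 715 against 355 and 362 and Slc31a2 at 409.8 and 431 against 193 and 239, fell. The creatine carrier Slc6a8 fell from 3567 and 3363 to 1745 and 1951, and the sodium-glucose carrier Slc5a1 from 866 and 1037 to 105 and 354. The amino acid carrier Slc38a4 rose from 94.3 and 118 to 428 and 280 (1.70 ± 0.35, adjusted p = 0.0372), as did the glutamate carrier Slc1a3, the insulin-responsive glucose carrier Slc2a4 and the potassium-chloride carrier Slc12a4. Of 31 tested cytochrome P450 genes 2 were lower, Cyp3a13 at 213 and 211 against 52.4 and 46.2 (-2.09 ± 0.21, adjusted p = 0.0033) and the fatty acid hydroxylase gene Cyp4f39. The P450 list median was -0.20, or 0.05 at a common library total. Among 20 clock genes Arntl2 was higher, at 50.1 and 53.6 against 181 and 158 (1.69 ± 0.26, adjusted p = 0.0156), and Cry1 and Rora were lower, with a median of -0.20, or 0.05 at a common library total. The 36 lower calls among metabolism genes were 1 and 1 without Lrig1 control 1 and 2, 11 and 11 without K14 control 1 and 2, 57 and 56 without K14 ablation 1 and 2, 188 and 63 without ablation 1 and 2, and 19 at a common library total.

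**Figure D5:**
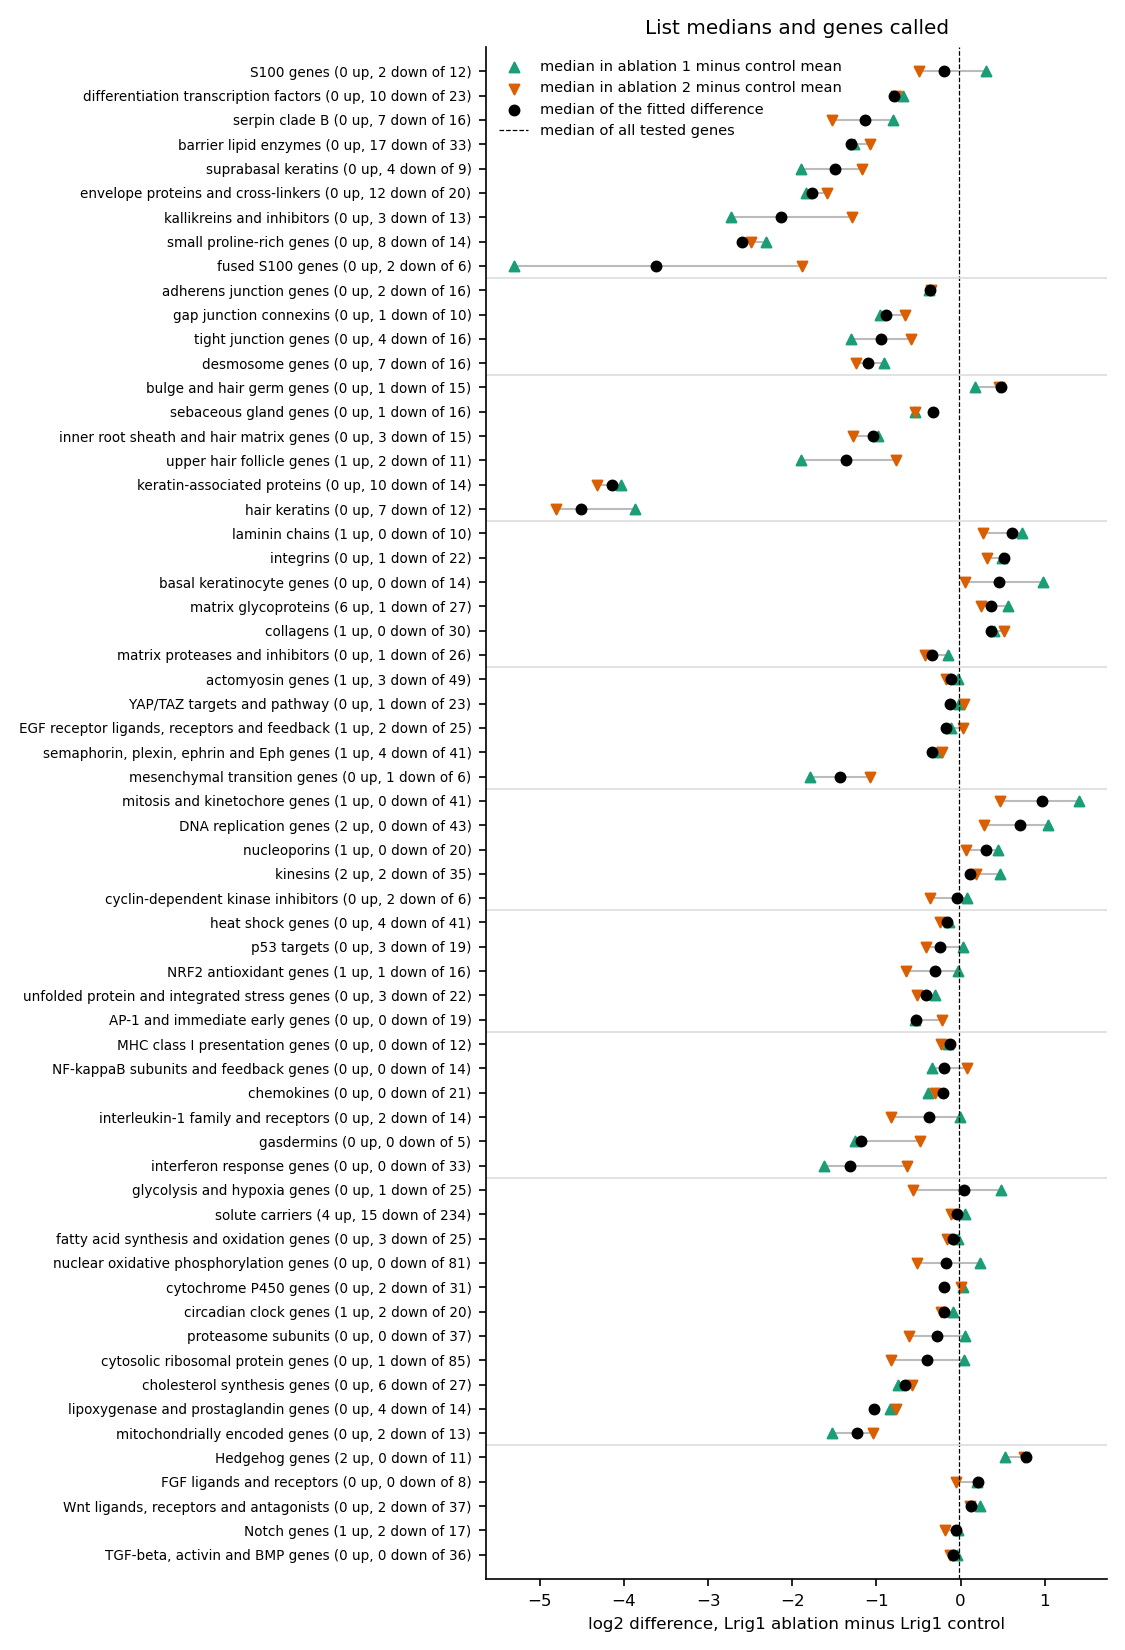
Median log2 difference (ablation minus control) of each gene list with at least 5 tested members, drawn as a black dot, with triangles for the list medians in ablation 1 and ablation 2 minus the control mean and a dashed line at the median of all tested genes; each label gives the numbers of members called higher and lower. Hair keratins lie lowest, with a median of -4.51, and the mitosis list is among the highest, with 0.96.

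Signalling lists held few calls. Of 37 tested Wnt ligands, receptors and antagonists 2 were lower, Dkkl1 at 89.6 and 109 in control and 6.21 and 9.55 in ablation (log2 difference of -3.51 ± 0.44, adjusted p = 0.00819) and the receptor Fzd1 at 896 and 889 against 607 and 555. Of 17 tested Notch genes 2 receptors were lower and 1 ligand was higher: Notch2 was at 3276 and 3328 against 1439 and 1977 (-0.97 ± 0.17, adjusted p = 0.0234), Notch3 at 1718 and 1693 against 625 and 861 (-1.22 ± 0.18, adjusted p = 0.0134) and Jag2, a basal ligand, at 1000.0 and 989.6 against 2723 and 1661 (1.1 ± 0.24, adjusted p = 0.0486). Notch1, the receptor known to drive spinous commitment, was at 5817 and 5341 against 6348 and 5096. The Notch list median was -0.06, or 0.16 at a common library total. Of 11 tested Hedgehog genes 2 were higher and the median was 0.78: the co-receptor Cdon at 329 and 314 against 622 and 489.6 (0.78 ± 0.16, adjusted p = 0.0353) and the transcription factor Gli3 at 397 and 472 against 900 and 730 (0.90 ± 0.19, adjusted p = 0.0423). None of 36 TGF-beta, activin and BMP genes and none of 8 FGF genes passed with limma or edgeR; 12 and 1 had an unadjusted p under 0.05, and DESeq2 called 0 and 1. The median of the TGF-beta list was -0.09, or 0.16 at a common library total. The 4 lower calls were 0 without either Lrig1 control library, 1 without either K14 control library, and 14 and 9 without ablation 1 and 2.

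Beyond the lists, which held 207 of the 737 calls, single genes reached large differences. Among lower genes with at least 100 in the higher group, Wfdc17, a small secreted protein, was at 1193 and 1231 in control and 47.0 and 22.3 in ablation (log2 difference of -5.18 ± 0.33, adjusted p = 0.00103). Ptprb, a phosphatase of endothelial cells, was at 177 and 233 against 1.77 and 10.3. Among higher genes of that size, Pi15, a secreted peptidase inhibitor (chromosome 1, 17601901 to 17630939, plus strand), was at 50.1 and 74.7 against 701 and 289.8 (2.86 ± 0.51, adjusted p = 0.0247), a 7.27-fold rise and the largest once predicted genes are left out. Kirrel, an adhesion molecule, rose from 40.7 and 49.3 to 172 and 141 (1.77 ± 0.33, adjusted p = 0.0279), Mpdz, a scaffold of tight junctions, from 139 and 162 to 454 and 410.0 (1.52 ± 0.17, adjusted p = 0.00531), and Mns1, a protein of cilia, from 38.4 and 31.0 to 105 and 112. Il24, a cytokine of the interleukin-10 family, had no control reads (0 and 0) and was at 33.7 and 7.96 in ablation, at least 5.4-fold higher by the floor given above (4.14 ± 0.72, adjusted p = 0.0229), and the deubiquitinase gene Usp44 at 0 and 0 against 7.99 and 8.76. Gprc5d, a receptor of hair-forming cells, was at 9.31 and 63.4 against 0 and 0, at least 14.4-fold lower.

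The 2 ablation libraries disagreed most, among genes with a mean of at least 500 there, for the sex-linked transcripts given above and for 5 others that did not pass. Fras1, which encodes a basement membrane protein, was at 1068 and 1128 in control, 1627 in ablation 1 and 232 in ablation 2, and Antxr1, a collagen-binding receptor, at 439 and 515, 1346 and 175. Fcgbp was at 1395 and 1720, 3323 and 525. Cyp2b19, a keratinocyte epoxygenase, ran the other way, at 1963 and 1394, 175 and 1344, as did the non-coding E230020D15Rik at 608 and 664, 232 and 1547. No direction can be drawn for these genes.

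The ablation effect was also compared with that in the K14 libraries, which share no library with the Lrig1 ones. The difference of the effects passed an adjusted p of 0.05 in 36 genes (0.198% of those tested), 34 of them with a lower value in Lrig1, and 2718 genes had an unadjusted p under 0.05. Krt17 fell in Lrig1, as given above, and was at 1901 and 2082 in K14 control and 5722 and 7274 in K14 ablation (difference of effects -2.48, limma adjusted p = 0.0384). Gpx2, a glutathione peroxidase of epithelia, was at 331 and 292 against 126 and 132 in Lrig1, but at 13.2 and 9.85 against 44.6 and 46.1 in K14 (-3.16, adjusted p = 0.0384). Ctss, a lysosomal protease of antigen-presenting cells, was at 82.7 and 142 against 12.4 and 8.76 in Lrig1 and at 5.08 and 7.88 against 38.2 and 54.7 in K14 (-5.93, adjusted p = 0.0384). For these genes the Lrig1 control libraries lay far above the K14 control libraries, while the ablation libraries lay nearer to each other. Krt84 and Elovl4 were lower in ablation in both sets: Krt84 was at 12354 and 12681 against 4587 and 6095 in K14 (-2.83, adjusted p = 0.0401) and Elovl4 at 1017 and 929 against 658 and 654 (-1.96, adjusted p = 0.0401). Slc15a2 was at 278 and 256 against 130.2 and 136 in K14 (-5.56, adjusted p = 0.0384). The 36 differences were 0 at a common library total, 2 with a filter at 1e-05 of the library total, 0 without any one of the 4 control libraries, 83 and 144 without K14 ablation 1 and 2, and 2022 and 551 without Lrig1 ablation 1 and 2.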

How the data were processed

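RNA sequencing of sorted epithelial cells was measured in 8 libraries, 2 per group. The submitters' processing notes name Trimmomatic, STAR, Picard and HTSeq 0.11.1 on GRCm38 (mm10), with no role or order. The deposited table holds a normalised signal per gene, which the authors made by dividing read counts by 1 size factor per library, as the values themselves show: 100% are whole multiples of 1 step per library within a tolerance of 0.001. The sources used here name neither the program that made the factors nor the strand setting or annotation used in counting. Columns named Exp were read as the ablation libraries. Coordinates came from GENCODE M21, matched for 32443 of 32574 identifiers, and 61 symbols occur more than once. Recovered depth was 6458636 to 9108072 reads in the Lrig1 libraries, and a floor of 3 reads, 2.12 to 4.23 normalised over the 8 libraries, covers counting error only.

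Genes were tested where 2 or more libraries had a value of 1e-06 of their total or above. Group means of all 8 libraries were fitted on log2(value + 1) with limma 3.58.1 (R 4.3.3), with a variance trend, 4 residual and 4.13 prior degrees of freedom, and an adjusted p of 0.05 as threshold. The difference of the Lrig1 and K14 effects came from the same fit. edgeR 4.0.16 and DESeq2 1.42.0 were run on the recovered reads, the first with its quasi-likelihood test. The pipeline was tested on simulated data: of genes changed by 1, 2, 3 and 4 on the log2 scale in the Lrig1 comparison, 4%, 84%, 100% and 100% were recovered among 17560 genes. The simulation gave every gene and library the same spread setting and changed only genes above a set mean, so these shares do not carry over to the real libraries. Other pseudocounts, filters, scalings, weights, a fit of the Lrig1 libraries alone, a replicate block and leaving out each library were tried.

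The comparison and the 78 gene lists were chosen with earlier results of these data known, so list counts are a description. Genes were named by rule: the largest calls in each direction with a mean of at least 100 in the higher group, called list members or the 5 with the smallest p, the 2 members of each list with the highest level, checks of the labels, the smallest p in the difference, the widest gaps between ablation libraries, genes at 0 in 1 group and the called genes with the highest level. Other named genes, and those in the promoter displays, were chosen after their values were seen, and some genes that the rule picked are not reported here.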

Additional observations from a re-analysis of the deposited data

Results flagged for a closer look

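The ablation effect differed between the Lrig1 and K14 libraries in 36 genes by limma's test of the difference (adjusted p under 0.05), with 34 lower in Lrig1. Of these, 9 that the naming rule picked are given here. Vim had the smallest p (difference of effects -4.44, adjusted p = 0.0272): it was at 611 and 816 against 95.8 and 125 in the Lrig1 set (control against ablation), and at 38.6 and 54.2 against 173 and 143 in K14. Krt17 (-2.48), Ctss (-5.93) and Gpx2 (-3.16) also fell in Lrig1 and had higher values in K14 ablation than in K14 control. Cdh5 (-5.42) was present in Lrig1 control and close to the floor in every other library, at 3.05 and 3.94 against 7.08 and 8.58 in K14. Slc15a2 (-5.56), Krt84 (-2.83), Elovl4 (-1.96) and Lypd3 (-1.61) were lower in ablation in both sets and by more in Lrig1. For Lypd3, an adhesion protein of the upper epidermis, the values were 3554 and 3620 against 922 and 874 in Lrig1 and 1949.9 and 2038 against 1666 and 1403 in K14. These 9 differences had adjusted p-values up to 0.0401. Endothelial and antigen-presenting cell markers, given in the report, were also higher in the Lrig1 control libraries, and their part in the differences was not tested.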

How the results depend on the processing

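With 2 libraries per group the fit has few degrees of freedom, and calls near the threshold turn on single libraries. Smaller changes can be missed at this depth and number, and genes near the floor carry counting error. How many are missed cannot be read from the simulated data, whose spread setting was the same for every gene and library. Among the calls here, 420 of the 598 lower and 103 of the 139 higher were 2-fold or larger. The 737 calls became 170 in a fit of the Lrig1 libraries alone, with 5 higher and 165 lower. They became 451 with array weights, 373 with no variance trend and 321 with a replicate block. Leaving out 1 library gave 5 to 2498 calls. Other pseudocounts, filters, scalings, edgeR and DESeq2 gave 565 to 997, with 997 from DESeq2. The 36 differences between Lrig1 and K14 became 83 with a pseudocount of 5, 5 with no filter, 2 with a filter at 1e-05 of the total, 0 at a common library total, 146 with array weights, 0 with the block and 303 with DESeq2, and 0 to 2022 without 1 library. The 207 calls within lists became 84 in the Lrig1 libraries alone, 108 with no trend, 131 with the block and 313 with DESeq2, and 3 to 486 without 1 library. The 3410 genes over 2-fold apart between the ablation libraries became 6801 with no filter and 1127 with the stricter one.

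Whether the replicate numbers pair the samples is not known. The deviations of control 1 and ablation 1 correlated at r = 0.0277 over 18140 genes. This value cannot settle it, because the wide gap between the ablation libraries could hide a shared batch. The block therefore rests on the number alone. No named gene called in the main analysis changed direction. Several named genes that were not called did. At a common library total, E230020D15Rik was at 0.165 and Fcgbp at 0.0203 (log2), and by edgeR and DESeq2 E230020D15Rik was at 0.525 and 0.509, Fcgbp at 0.343 and 0.311 and Xist at 0.22 and 0.184. Leaving out ablation 1 and ablation 2 in turn gave -1.43 and 1.5 for Antxr1, -0.158 and 1.08 for Col17a1, 0.731 and -9.6 for Ddx3y, 1.28 and -1.45 for E230020D15Rik, -1.56 and 1.1 for Fcgbp, -2.23 and 0.568 for Fras1, -0.616 and 0.701 for Krt14, -0.257 and 1.16 for Krt5, -0.475 and 0.678 for Krt6a, -0.259 and 1.44 for Krt6b, -0.129 and 0.188 for Notch1 and -7.25 and 1.2 for Xist. Without Lrig1 control 1 Antxr1 was at -0.0817, and without Lrig1 control 2 Notch1 was at -0.0324. The cause of these changes was not tested, beyond the smaller number of libraries or genes in a setting.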

Other observations

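Several gene families outside the lists, picked after their values were seen and so given only as a description, held more calls than the 4.06% of all tested genes. The Ly6 and uPAR family, small membrane-anchored or secreted proteins of which several are made by differentiating keratinocytes, had 8 lower of 17 tested. Slurp1, whose human counterpart is mutated in a palmoplantar keratoderma, was at 150.2 and 156 in control and 6.21 and 8.76 in ablation (log2 difference of -4.20 ± 0.36, limma adjusted p = 0.00207). Lypd5 was at 378 and 344 against 9.76 and 55.7, and Slurp2 at 165 and 200.2 against 23.1 and 14.3. Phospholipases A2 had 3 lower of 13, among them Pla2g2f, an epidermal secreted form, at 1423 and 1532 against 151 and 526 (-2.38 ± 0.49, adjusted p = 0.0376).

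Some membrane traffic genes were also among the calls. Of 19 tested subunits of the vacuolar proton pump, which acidifies lysosomes and secretory organelles, 6 were lower and 18 had values below 0, with Atp6v1a at 2481 and 2678 against 1511 and 1226 (-0.92 ± 0.15, adjusted p = 0.0195). ESCRT-III genes, which bud and sever membranes, had 3 lower of 10, and Rab GTPases 8 of 47, of which 34 had values below 0. Rab11a was at 1414 and 1573 against 727 and 708 (-1.05 ± 0.13, adjusted p = 0.00837), Rab25 at 800 and 705 against 353 and 275, and Rab27b at 602 and 703 against 302 and 174. In the other direction, 6 of 28 tested Fanconi, BRCA and helicase genes of DNA repair and replication were higher, including Dna2, a nuclease of replication intermediates, at 51.2 and 52.2 against 144 and 126 (1.36 ± 0.20, adjusted p = 0.0126), and Fancd2, at 66.4 and 60.6 against 169 and 119 (1.15 ± 0.22, adjusted p = 0.0313). Both ablation libraries lay above control for Dna2 and Fancd2.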
